A study of Mus musculus with 18 samples.

Results

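Histone-modifying enzymes were examined in RNA-seq and Ribo-seq of mouse cerebral cortex at E15.5. Genes were taken by symbol, as every lysine methyltransferase (Kmt), lysine demethylase (Kdm), lysine acetyltransferase (Kat), histone deacetylase (Hdac) and SET domain gene (Setd) carrying a number or, for Setd, the letter b, together with *Crebbp*, *Ep300*, *Ezh1*, *Ezh2*, *Nsd1*, *Nsd2*, *Nsd3*, *Dot1l*, *Ash1l*, *Ehmt1* and *Ehmt2*, and without the Y-linked *Kdm5d*. The rule uses symbols and no measured value, and was set with earlier results of these data known. It gave 70 of the 55153 genes of the RNA-seq count table, 65 of them protein-coding. Counts were present in all 9 Ribo-seq libraries for 64 genes. The other 6 were the pseudogenes *Kat2b-ps*, *Kat6b-ps1*, *Kat6b-ps2* and *Kdm4dl*, the antisense transcript *Kdm6bos*, and *Kdm4d*. In RNA-seq the 64 genes and *Kdm6bos* passed the filter on low counts and were tested, and the remaining 5 stood at or below 0.186 FPKM in every RNA-seq library.

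Ctrl cortices were labelled wild type, and 1 Ctrl group served both knockout lines. *F*-cKO cortices carried *Fto*(f/f, Emx1-cre), which removes exon 3 of *Fto*, an RNA demethylase acting on m6A. *M*-cKO cortices carried *Mettl3*(f/f, Emx1-cre), which removes exons 2 and 3 of *Mettl3*, the catalytic subunit of the m6A methyltransferase. The label gives the strain of all samples as C57BL/6, while the floxed lines were kept on a mixed background. Because the *Emx1* promoter drives Cre in the cortical lineage, interneurons, vessels, microglia and blood of the same tissue keep both genes. Each group had 3 libraries in each assay, 18 in all, and the labels call the libraries of a group biological repeats. Neither the labels nor the methods make clear whether these were separate embryos, and the wording of the methods on the Ribo-seq cortices may mean a shared litter, so that *P* values measure the spread between these libraries only.

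Histone-modifying enzymes place or remove small chemical groups on lysines of the histone tails around which DNA is wound. Methylation of H3K4 and acetylation mark active promoters and enhancers, H3K36 methylation follows transcribed gene bodies, and methylation of H3K9 and H3K27 is found on silenced chromatin. In the developing cortex, the H3K27 methyltransferase EZH2 is best known in dividing progenitors, whereas EZH1 is the form found in non-dividing cells, and several of the genes below (*KMT2D*, *CREBBP*, *EP300*, *NSD1*, *EHMT1*, *KDM5C*) cause intellectual disability syndromes when mutated in humans.

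RNA-seq libraries held between 18504094 and 22592406 counted reads and Ribo-seq libraries between 10973699 and 35853227 counted fragments, a ratio of 3.27 between the largest and the smallest in Ribo-seq. *Fto* RNA was 10.8, 11.2 and 8.37 FPKM in Ctrl against 3.26, 7.56 and 2.43 FPKM in *F*-cKO (replicate 2 retained the most), and *Fto* footprints were 25.9, 22.0 and 17.6 RPKM against 3.91, 2.11 and 4.04 RPKM. *Mettl3* footprints were 9.16, 9.25 and 9.93 RPKM in Ctrl against 6.78, 6.02 and 6.40 RPKM in *M*-cKO, while its RNA over the whole gene was higher in *M*-cKO (7.82 to 8.61 FPKM) than in Ctrl (5.07 to 6.43 FPKM). A count over the whole gene includes the exons that remain and does not check the deletion. Ribo-seq *F*-cKO replicate 2 was the shallowest library and stood apart, with 1458 RPKM summed over 8 genes of protein folding at the endoplasmic reticulum against 171.9 to 261.9 RPKM in the other 8 Ribo-seq libraries. The 8 cortex identity markers were present in every group, with summed RNA levels of 643.2 to 715.4 FPKM in Ctrl, 773.0 to 826.3 FPKM in *F*-cKO and 787.7 to 800.7 FPKM in *M*-cKO, and 4 of them were higher in *F*-cKO and 3 in *M*-cKO. For the enzymes, most fold changes, medians and counts of *F*-cKO footprints are given with and without Ribo-seq *F*-cKO replicate 2. Shares of all genes by unadjusted *P*, and some counts over all the enzymes, are given with all libraries only.

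In Ctrl cortex the enzymes spanned a wide range of RNA levels per gene length. The class I deacetylase *Hdac2* was the most abundant, at 82.7 ± 3.02 FPKM (SD, n = 3). It was followed by the H3K9 methyltransferase *Ehmt2* at 66.7 ± 2.03 FPKM and the H3K4 demethylase *Kdm1a* at 48.0 ± 2.99 FPKM, and none of these 3 overlapped another in any Ctrl library. Next came the H3K9 and H3K36 demethylase *Kdm4a* at 37.1 ± 1.32 FPKM, then *Hdac3* at 31.7 ± 0.697 FPKM and *Kdm4b* at 30.4 ± 1.19 FPKM, of which the last pair overlapped in range. At the low end, *Hdac9* stood at 1.86 ± 0.135 FPKM and *Setdb2* at 1.44 ± 0.134 FPKM. On the footprint scale, *Hdac2* was again first at 168.3 ± 17.5 RPKM followed by *Kdm1a* at 121.1 ± 6.13 RPKM.

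**Figure D1:**
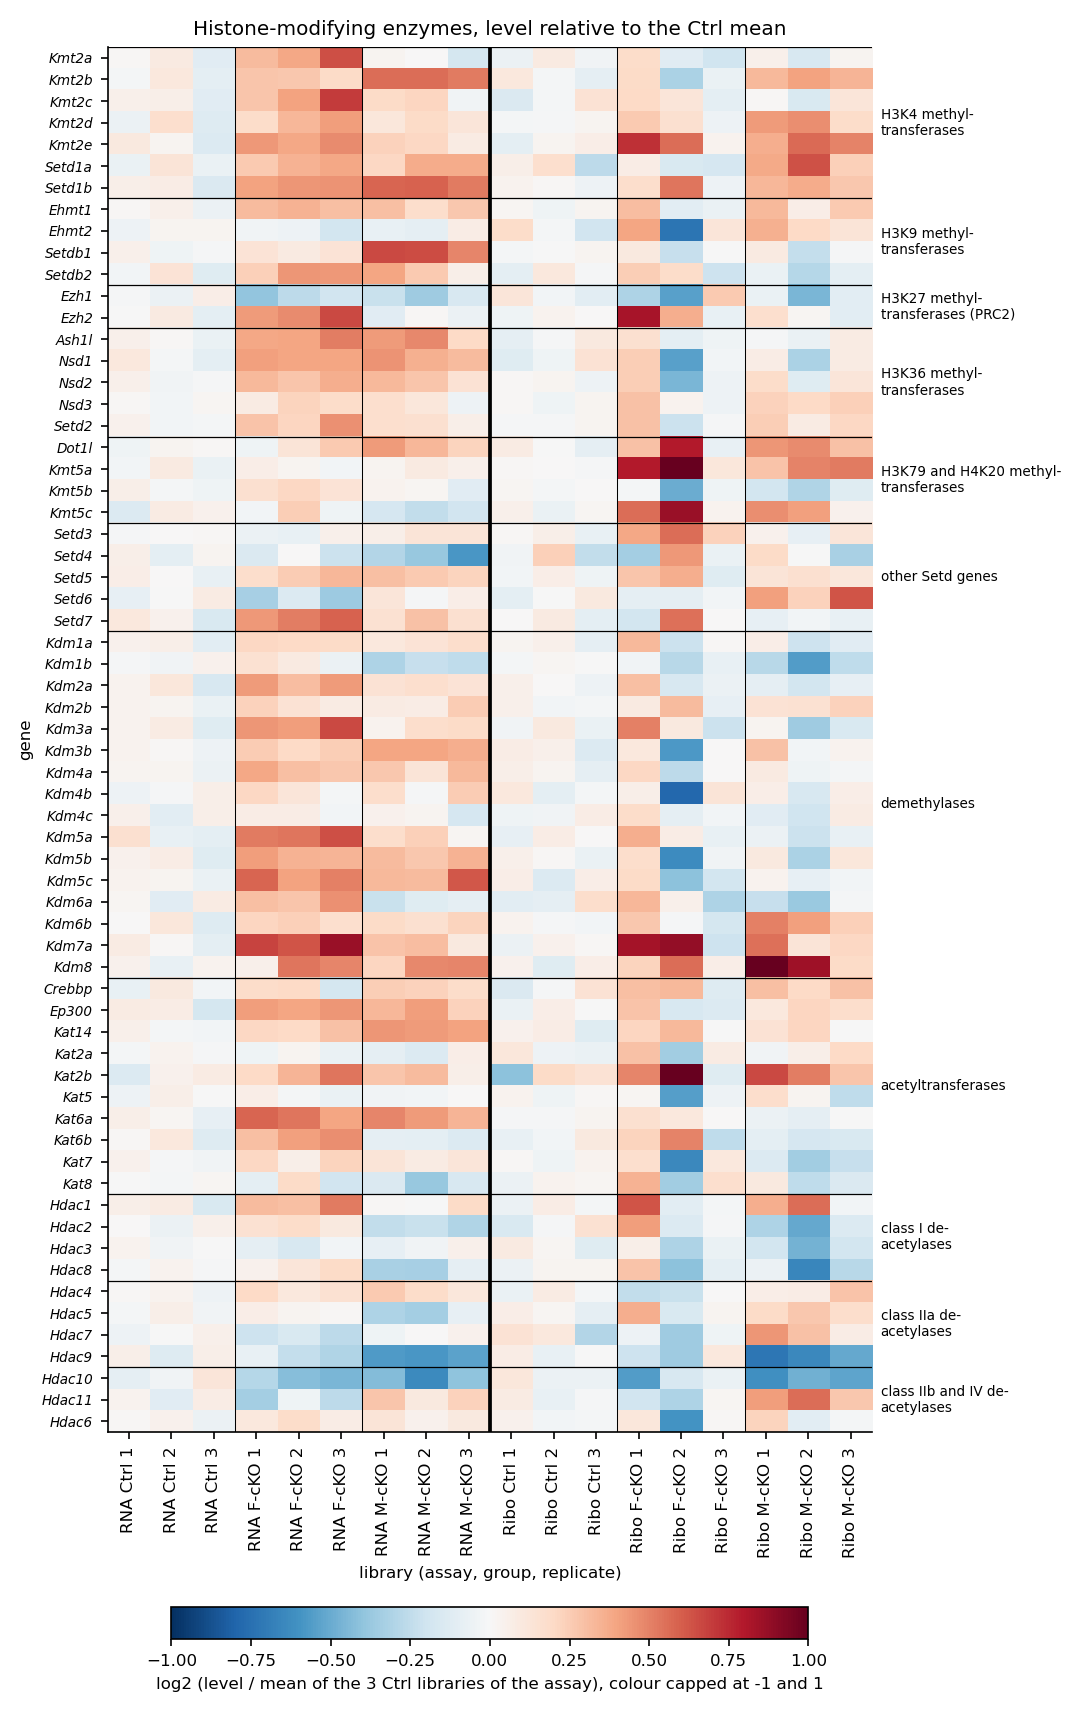
Each row is 1 of the 64 enzymes with counts in all libraries, grouped by role, and each column is 1 of the 18 libraries; the colour is the log2 ratio of FPKM (RNA) or RPKM (Ribo) to the mean of the 3 Ctrl libraries of that assay, capped at -1 and 1. RNA of the H3K4 group was above the Ctrl mean in all 3 *F*-cKO libraries, and the footprint columns of *F*-cKO replicate 2 differ from those of replicates 1 and 3.

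More histone-modifying enzymes had higher than lower RNA in *F*-cKO against Ctrl. By edgeR's quasi-likelihood test over the 6 libraries, 29 of the 65 tested enzymes were higher and 3 were lower at an adjusted *P* below 0.05, beside 11.5% higher and 9.57% lower among all 16944 genes tested. The median log2 fold change was 0.20 over the enzymes and -0.01 over all genes. In 41 enzymes all 3 *F*-cKO libraries lay above all 3 Ctrl libraries and in 5 all lay below, against 20.9% and 20.7% of all genes. Changes were moderate, the largest being 1.64-fold. The number called was 21 without Ctrl replicate 3, of which 20 were higher, and 23 without *F*-cKO replicate 2, all of them higher. In bulk tissue, a different share of cells of a type and a different amount of RNA per cell cannot be told apart.

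The 7 genes of the H3K4 methyltransferase group, most of which encode catalytic subunits of COMPASS complexes, were all called higher in *F*-cKO with all libraries, with log2 fold changes between 0.24 and 0.46 and a group median of 0.42. *Kmt2a* (MLL1, chr9:44803355-44881352 on GRCm38) was at 13.7, 14.4 and 12.5 FPKM in Ctrl and at 16.9, 17.8 and 21.1 FPKM in *F*-cKO. The groups did not overlap, and the log2 fold change was 0.45 ± 0.09 (SE, adjusted *P* = 0.01). *Kmt2d*, the enhancer methyltransferase mutated in Kabuki syndrome, was at 7.10, 8.31 and 6.78 FPKM in Ctrl and 8.38, 9.29 and 9.86 FPKM in *F*-cKO, a log2 fold change of 0.30 ± 0.09 (adjusted *P* = 0.04). The lowest *F*-cKO library lay just above the highest Ctrl library in FPKM. The *Kmt2d* call was lost without any one of 4 libraries, with an adjusted *P* of 0.11 without Ctrl replicate 1, 0.14 without Ctrl replicate 3, 0.11 without *F*-cKO replicate 2 and 0.09 without *F*-cKO replicate 3. *Kmt2e* belongs to the group by name, and its protein has no established methyltransferase activity. The other 5, *Kmt2b*, *Kmt2c*, *Kmt2e*, *Setd1a* and *Setd1b*, had log2 fold changes of 0.24, 0.46, 0.42, 0.32 and 0.42. The calls of *Kmt2a*, *Kmt2e* and *Setd1b* held without any one library. Those of *Kmt2b* and *Setd1a* were each lost in 4 of 6 fits that left out 1 library (adjusted *P* of 0.055 to 0.11 and 0.063 to 0.094), and that of *Kmt2c* without Ctrl replicate 3 (0.06). The number of the 7 still called was 3 without Ctrl replicate 3, 4 without Ctrl replicate 1 or *F*-cKO replicate 2, and 5 to 7 without each of the others.

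Both H3K27 methyltransferases of Polycomb repressive complex 2 were called in *F*-cKO, in opposite directions. *Ezh2* RNA (chr6:47530274-47595270) was 21.9, 23.4 and 20.6 FPKM in Ctrl and 29.5, 30.5 and 34.7 FPKM in *F*-cKO, a log2 fold change of 0.51 ± 0.08 (adjusted *P* = 0.0041). *Ezh1* RNA (chr11:101191115-101226463) was 4.90, 4.73 and 5.16 FPKM in Ctrl and 3.75, 4.12 and 4.31 FPKM in *F*-cKO, a log2 fold change of -0.29 ± 0.08 (adjusted *P* = 0.032). Neither gene overlapped between the groups. The *Ezh1* call was lost without any one of 5 libraries, with adjusted *P* between 0.051 and 0.11, and was kept without *F*-cKO replicate 3, whereas the *Ezh2* call held without any one library.

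The promoters of 5 enzymes are shown because *Kmt2a*, *Kmt2c* and *Setd1a* belong to the group in which every member was higher in *F*-cKO and span its range of GC boxes, and *Ezh2* and *Ezh1* moved in opposite directions there. Each window runs from 250 bases before to 50 bases after the start site of the promoter table (RefSeq, GRCm38.p6, 49 of the 70 genes have a window). This site is the outer end of the gene model for *Setd1a* and *Ezh1*, and lies inside the gene model by 63 bases for *Kmt2a*, 72 for *Kmt2c*, 240 for *Ezh2* and 2872 for *Kmt2d*. Capitals mark GGGCGG, the GC box bound by SP and KLF factors, and TTTGGCGC or TTTCCCGC, forms of the E2F site, each searched on both strands.
*Kmt2a*, chr9:44881240-44881539, minus strand: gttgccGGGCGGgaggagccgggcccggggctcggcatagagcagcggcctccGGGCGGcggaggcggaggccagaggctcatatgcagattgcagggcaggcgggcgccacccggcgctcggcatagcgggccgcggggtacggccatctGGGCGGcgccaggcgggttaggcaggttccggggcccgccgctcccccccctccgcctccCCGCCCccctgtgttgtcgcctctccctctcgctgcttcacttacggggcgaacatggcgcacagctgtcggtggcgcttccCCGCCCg
*Kmt2c*, chr5:25498734-25499033, minus strand: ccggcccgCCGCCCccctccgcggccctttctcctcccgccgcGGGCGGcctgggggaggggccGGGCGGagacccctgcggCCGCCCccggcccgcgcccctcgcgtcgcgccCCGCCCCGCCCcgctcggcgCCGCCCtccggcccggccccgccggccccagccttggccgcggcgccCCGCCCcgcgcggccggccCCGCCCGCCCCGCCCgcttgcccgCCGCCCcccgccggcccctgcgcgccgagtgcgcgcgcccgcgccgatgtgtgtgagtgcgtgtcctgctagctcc
*Setd1a*, chr7:127777139-127777438, plus strand: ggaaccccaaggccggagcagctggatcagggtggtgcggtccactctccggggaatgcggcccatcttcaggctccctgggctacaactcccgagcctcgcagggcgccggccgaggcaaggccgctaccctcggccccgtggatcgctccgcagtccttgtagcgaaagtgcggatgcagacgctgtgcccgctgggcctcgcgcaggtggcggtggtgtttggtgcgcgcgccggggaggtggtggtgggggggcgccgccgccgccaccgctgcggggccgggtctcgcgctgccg
*Ezh2*, chr6:47594981-47595280, minus strand: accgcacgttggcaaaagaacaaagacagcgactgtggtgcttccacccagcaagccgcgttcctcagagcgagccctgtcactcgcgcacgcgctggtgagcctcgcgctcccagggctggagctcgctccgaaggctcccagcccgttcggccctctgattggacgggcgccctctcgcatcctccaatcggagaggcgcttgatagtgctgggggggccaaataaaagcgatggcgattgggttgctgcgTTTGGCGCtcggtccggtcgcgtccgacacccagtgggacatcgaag
*Ezh1*, chr11:101226414-101226713, minus strand: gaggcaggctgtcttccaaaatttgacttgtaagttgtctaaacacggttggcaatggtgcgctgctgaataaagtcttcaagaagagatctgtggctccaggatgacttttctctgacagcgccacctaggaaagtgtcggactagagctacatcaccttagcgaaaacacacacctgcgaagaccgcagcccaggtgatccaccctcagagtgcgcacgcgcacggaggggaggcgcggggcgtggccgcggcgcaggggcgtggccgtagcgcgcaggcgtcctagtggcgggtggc
*Kmt2a* held 5 GC boxes, *Kmt2c* 12 and *Setd1a* 0, counting overlapping matches, and *Kmt2d*, the other H3K4 methyltransferase with a window, held 4. None of these 4 held an E2F form. *Ezh2* held 1 E2F form and no GC box, and *Ezh1* held neither. Among all 32851 promoter windows of the table, 35.7% held a GC box and 1.56% an E2F form, compared with 63.2% and 2.94% of the 68 windows of the enzymes. These are matches of letters and not measured binding.

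Among the enzymes of H3K36 and H3K9, *Ash1l*, *Nsd1*, *Nsd2* and *Setd2* of 5 H3K36 methyltransferases and *Ehmt1* of 4 H3K9 methyltransferases were higher in *F*-cKO. *Ash1l* rose from 7.69, 7.50 and 7.10 FPKM to 9.71, 9.74 and 10.6 FPKM, a log2 fold change of 0.42 ± 0.06 (adjusted *P* = 0.0039). Its gene model shares 800 bases with *Dap3*, whose own log2 fold change was -0.11. *Setd2*, the enzyme that trimethylates H3K36 behind RNA polymerase II, rose by 0.31 ± 0.07 on the log2 scale (adjusted *P* = 0.015, and 0.052 without Ctrl replicate 3). The 4 H3K79 and H4K20 methyltransferases had log2 fold changes between 0.01 and 0.16 and were not called by edgeR, the smallest unadjusted *P* being 0.016 for *Kmt5b*.

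Demethylases showed the largest single change. *Kdm7a*, which removes methyl groups from H3K9 and H3K27, was 3.47, 3.31 and 3.08 FPKM in Ctrl and 5.25, 5.08 and 5.98 FPKM in *F*-cKO, a log2 fold change of 0.72 ± 0.08 (adjusted *P* = 0.0029). All 3 *F*-cKO libraries were above every Ctrl library. In all, 9 of 16 tested demethylase genes were higher by edgeR, and the other 7 had log2 fold changes between 0.03 and 0.36, while the antisense transcript *Kdm6bos* was at 0.17 and was not called. The H3K4 demethylases *Kdm5a* and *Kdm5c* rose by 0.56 ± 0.08 (adjusted *P* = 0.0034) and 0.49 ± 0.06 (adjusted *P* = 0.0034) on the log2 scale. *Kdm5a* was 5.71, 4.85 and 4.78 FPKM in Ctrl and 7.34, 7.41 and 8.001 FPKM in *F*-cKO, and *Kdm5c* was 14.6, 14.53 and 13.7 FPKM in Ctrl and 21.4, 18.8 and 20.3 FPKM in *F*-cKO. *Kdm5a*, *Kdm5b* and *Kdm5c*, which remove H3K4 methylation, were higher alongside the 7 genes of the H3K4 methyltransferase group.

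Of 10 tested acetyltransferases, 4 were higher in *F*-cKO, led by *Kat6a* (MOZ), at 16.8, 16.4 and 15.2 FPKM in Ctrl and 24.0, 23.4 and 21.1 FPKM in *F*-cKO, a log2 fold change of 0.49 ± 0.07 (adjusted *P* = 0.0034). *Ep300* rose by 0.41 ± 0.07 on the log2 scale (adjusted *P* = 0.0066), while its paralog *Crebbp* was at 0.07 ± 0.10 (adjusted *P* = 0.67). Among the 11 deacetylases 1 was higher, *Hdac1*, and 2 were lower. *Hdac1* rose from 21.6, 22.0 and 18.7 FPKM to 25.9, 25.5 and 29.7 FPKM, a log2 fold change of 0.37 ± 0.08 (adjusted *P* = 0.015, and 0.053 without Ctrl replicate 3). *Hdac10*, a class IIb enzyme known to act on polyamines, fell from 10.7, 11.2 and 12.4 FPKM to 9.39, 8.49 and 8.33 FPKM, a log2 fold change of -0.40 ± 0.09 (adjusted *P* = 0.013, and 0.053 without *F*-cKO replicate 2). *Hdac7*, a class IIa enzyme, was the third gene called lower, at -0.21 ± 0.06 (adjusted *P* = 0.036), a call that was lost without each of the 6 libraries in turn (adjusted *P* up to 0.12). Its gene model touches that of *Slc48a1* over 32 bases, and *Slc48a1* was lower as well (log2 fold change -0.37, adjusted *P* = 0.011). *Hdac2* was 82.9, 79.6 and 85.6 FPKM in Ctrl and 91.9, 94.1 and 88.6 FPKM in *F*-cKO, a log2 fold change of 0.14 ± 0.06 (adjusted *P* = 0.12).

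**Figure D2:**
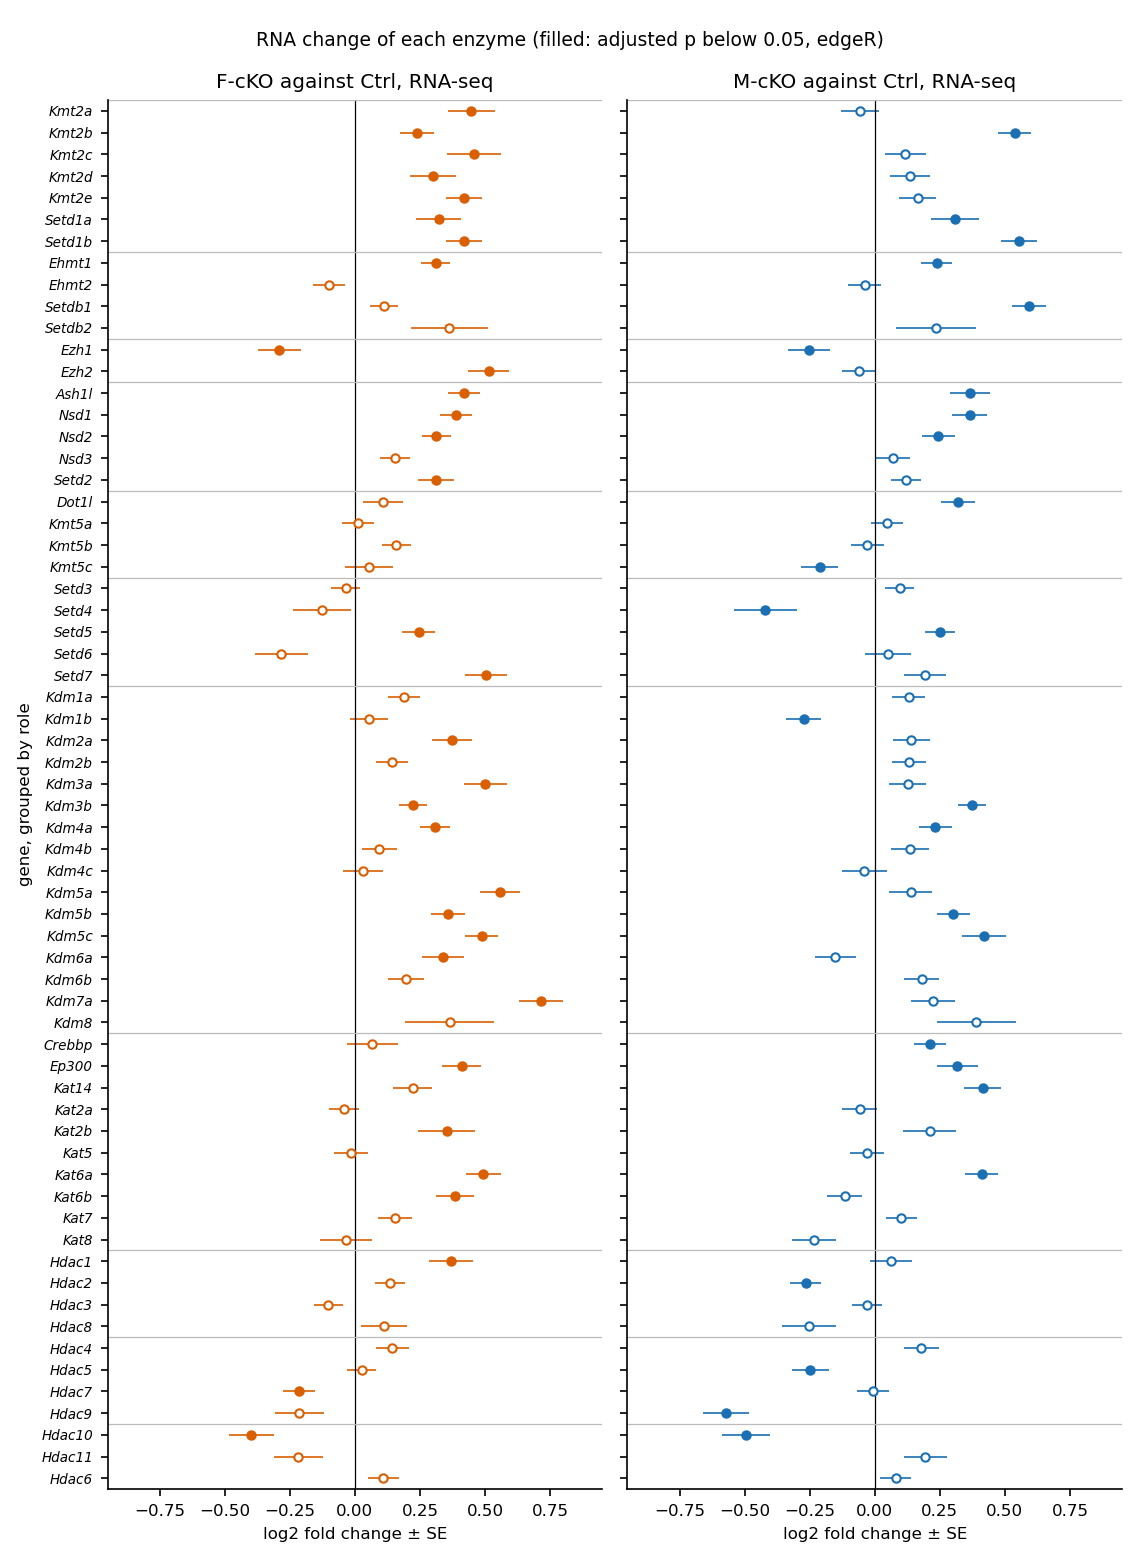
Each point is the log2 fold change of 1 enzyme in RNA-seq with its standard error from edgeR, *F*-cKO against Ctrl on the left and *M*-cKO against Ctrl on the right, over 3 libraries per group; filled points have an adjusted *P* below 0.05 and grey lines divide the roles. All 7 genes of the H3K4 methyltransferase group at the top are filled and above 0 in *F*-cKO, compared with 3 of 7 in *M*-cKO, and the 2 panels share their Ctrl libraries.

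RNA of histone-modifying enzymes also moved in *M*-cKO. By the same test, 18 of the 65 tested enzymes were higher and 8 were lower than in Ctrl, beside 15.5% and 14.1% of all 16968 genes tested. The median log2 fold change was 0.13 over the enzymes and -0.01 over all genes. The *M*-cKO and Ctrl ranges did not overlap in 40 enzymes, 30 with *M*-cKO on the higher side and 10 with *M*-cKO on the lower side, against 22.6% and 22.3% of all genes. The same 3 Ctrl libraries entered this comparison and the previous one. Leaving out 1 library gave between 18 and 29 called enzymes, fewest without *M*-cKO replicate 1.

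*Setdb1*, an H3K9 methyltransferase known for silencing endogenous retroviruses, showed the smallest *P* value among the enzymes. It was 17.1, 16.1 and 16.4 FPKM in Ctrl and 26.1, 26.0 and 23.1 FPKM in *M*-cKO, a log2 fold change of 0.59 ± 0.06 (adjusted *P* = 9.9e-05), and 18.2, 17.6 and 18.2 FPKM in *F*-cKO. *Setdb1* (chr3:95323525-95357202) overlaps *Cers2* over 75 bases in the gene models, and *Cers2* was not called (log2 fold change -0.12). Among the H3K4 methyltransferases, *Kmt2b* and *Setd1b* rose the most. *Kmt2b* was 14.0, 15.2 and 13.2 FPKM in Ctrl and 20.8, 20.9 and 20.2 FPKM in *M*-cKO, a log2 fold change of 0.54 ± 0.06 (adjusted *P* = 0.00016). *Setd1b* was 6.20, 6.26 and 5.40 FPKM in Ctrl and 8.90, 8.96 and 8.55 FPKM in *M*-cKO, a log2 fold change of 0.56 ± 0.07 (adjusted *P* = 0.0002). *Setd1a* was the third H3K4 methyltransferase called higher, a call lost in at least 1 fit that left out 1 library. *Kmt2a* (-0.06 ± 0.07, adjusted *P* = 0.61) and *Kmt2d* (0.13 ± 0.08, adjusted *P* = 0.22) were not called, but *Kmt2d* was called without Ctrl replicate 2 (0.23, adjusted *P* = 0.026), and the sign for *Kmt2a* turned to 0.015 without *M*-cKO replicate 3.

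Of the H3K27 methyltransferases, *Ezh2* stood at 20.3, 22.1 and 21.1 FPKM in *M*-cKO, within the range of Ctrl apart from its lowest library (log2 fold change -0.06 ± 0.07, adjusted *P* = 0.54). *Ezh1* fell to 4.22, 3.86 and 4.40 FPKM, a log2 fold change of -0.25 ± 0.08 (adjusted *P* = 0.035), a call lost without either Ctrl replicate 1 (0.079), Ctrl replicate 3 (0.12), *M*-cKO replicate 1 (0.088) or *M*-cKO replicate 2 (0.14). *Setd2* was at 0.12 ± 0.06 (adjusted *P* = 0.14, and 0.047 without *M*-cKO replicate 3), whereas *Ash1l*, *Nsd1* and *Nsd2* were higher. *Dot1l*, the H3K79 methyltransferase, was higher by 0.32 ± 0.06 (adjusted *P* = 0.0037) and the H4K20 methyltransferase *Kmt5c* was lower (-0.21 ± 0.07, adjusted *P* = 0.046). The calls of *Nsd2* and *Kmt5c* were each lost in at least 1 fit that left out 1 library. *Setd4* fell from 2.58, 2.31 and 2.52 FPKM to 2.02, 1.91 and 1.65 FPKM, a log2 fold change of -0.42 ± 0.12 (adjusted *P* = 0.021), with adjusted *P* of 0.078, 0.066, 0.057 and 0.065 without Ctrl replicates 1 and 3 and *M*-cKO replicates 2 and 3.

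Of 16 tested demethylase genes, 4 were higher and 1 was lower in *M*-cKO, and *Kdm6bos* was not called (-0.36). *Kdm3b*, an H3K9 demethylase, rose from 8.19, 8.05 and 7.70 FPKM to 10.46, 10.52 and 10.2 FPKM, a log2 fold change of 0.37 ± 0.06 (adjusted *P* = 0.00063). *Kdm1b*, an H3K4 demethylase that acts in oocytes, fell from 9.17, 9.03 and 9.50 FPKM to 7.46, 7.88 and 7.73 FPKM, a log2 fold change of -0.27 ± 0.07 (adjusted *P* = 0.011, and 0.056 without *M*-cKO replicate 1). Its gene model shares 513 bases with *Dek* (log2 fold change 0.11, not called). Among acetyltransferases, *Kat6a* (0.41 ± 0.06, adjusted *P* = 0.00076), *Kat14* (0.41 ± 0.07, adjusted *P* = 0.0016), *Ep300* (0.32 ± 0.08, adjusted *P* = 0.011) and *Crebbp* (0.21 ± 0.06, adjusted *P* = 0.025) were higher. *Kat14* was 6.35, 6.06 and 6.01 FPKM in Ctrl and 8.36, 8.25 and 8.10 FPKM in *M*-cKO, and its gene model shares 4306 bases with *Pet117*. The *Crebbp* call was lost without Ctrl replicates 1 (0.11) or 3 (0.065) and without *M*-cKO replicates 1 (0.081) or 2 (0.063).

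Of the 11 deacetylases, 4 were lower in *M*-cKO, *Hdac2*, *Hdac5*, *Hdac9* and *Hdac10*, and the other 7 were not called by edgeR. On the higher side, *Hdac4* (0.18 ± 0.07, adjusted *P* = 0.065) and *Hdac11* (0.19 ± 0.08, adjusted *P* = 0.092) had unadjusted *P* values below 0.05. *Hdac9*, a class IIa enzyme of muscle and neurons, was 1.94, 1.71 and 1.95 FPKM in Ctrl and 1.26, 1.24 and 1.28 FPKM in *M*-cKO, a log2 fold change of -0.57 ± 0.09 (adjusted *P* = 0.00081). *Hdac10* fell to 8.47, 7.34 and 8.65 FPKM, a log2 fold change of -0.49 ± 0.09 (adjusted *P* = 0.0023). *Hdac2* fell to 69.8, 70.8 and 67.0 FPKM, a log2 fold change of -0.27 ± 0.06 (adjusted *P* = 0.0061), and *Hdac1*, with which it shares most complexes, was at 0.06 ± 0.08 (adjusted *P* = 0.60). In each of *Hdac2*, *Hdac9* and *Hdac10* every *M*-cKO library lay below every Ctrl library, and these 3 calls held without any one library. *Hdac5* fell by 0.25 on the log2 scale (SE 0.07, adjusted *P* = 0.025), with adjusted *P* between 0.051 and 0.10 without any one of 5 libraries.

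The knockouts were also compared with each other. In *M*-cKO against *F*-cKO, 5 enzymes were higher and 19 were lower, beside 13.1% and 14.3% of all 16802 genes tested, and the median log2 fold change was -0.08 over the enzymes and -0.0042 over all genes. Genes lower in *M*-cKO than in *F*-cKO were led by the acetyltransferase *Kat6b* (-0.51 ± 0.07, adjusted *P* = 0.00058), *Ezh2* (-0.59 ± 0.08, adjusted *P* = 0.00067) and *Hdac2* (-0.41 ± 0.06, adjusted *P* = 0.0011). *Kat6b* was 11.2, 12.03 and 12.5 FPKM in *F*-cKO and 8.52, 8.46 and 8.26 FPKM in *M*-cKO, with Ctrl at 9.13, 9.76 and 8.27 FPKM. Genes higher in *M*-cKO were led by *Setdb1* (0.47 ± 0.07, adjusted *P* = 0.00089), *Kmt2b* (0.29 ± 0.06, adjusted *P* = 0.0051) and *Hdac11* (0.40 ± 0.09, adjusted *P* = 0.01). *Hdac11*, the class IV deacetylase, was 7.42, 9.11 and 7.83 FPKM in *F*-cKO and 11.3, 10.02 and 10.998 FPKM in *M*-cKO, with Ctrl at 9.61, 8.66 and 9.84 FPKM. Within the H3K4 methyltransferase group the difference therefore went both ways, with *Kmt2b* higher and *Kmt2a*, *Kmt2c* and *Kmt2e* lower in *M*-cKO. The number called was 13 without *M*-cKO replicate 1 and 15 without *M*-cKO replicate 2, and those 6 genes were called in every fit that left out 1 library.

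**Figure D3:**
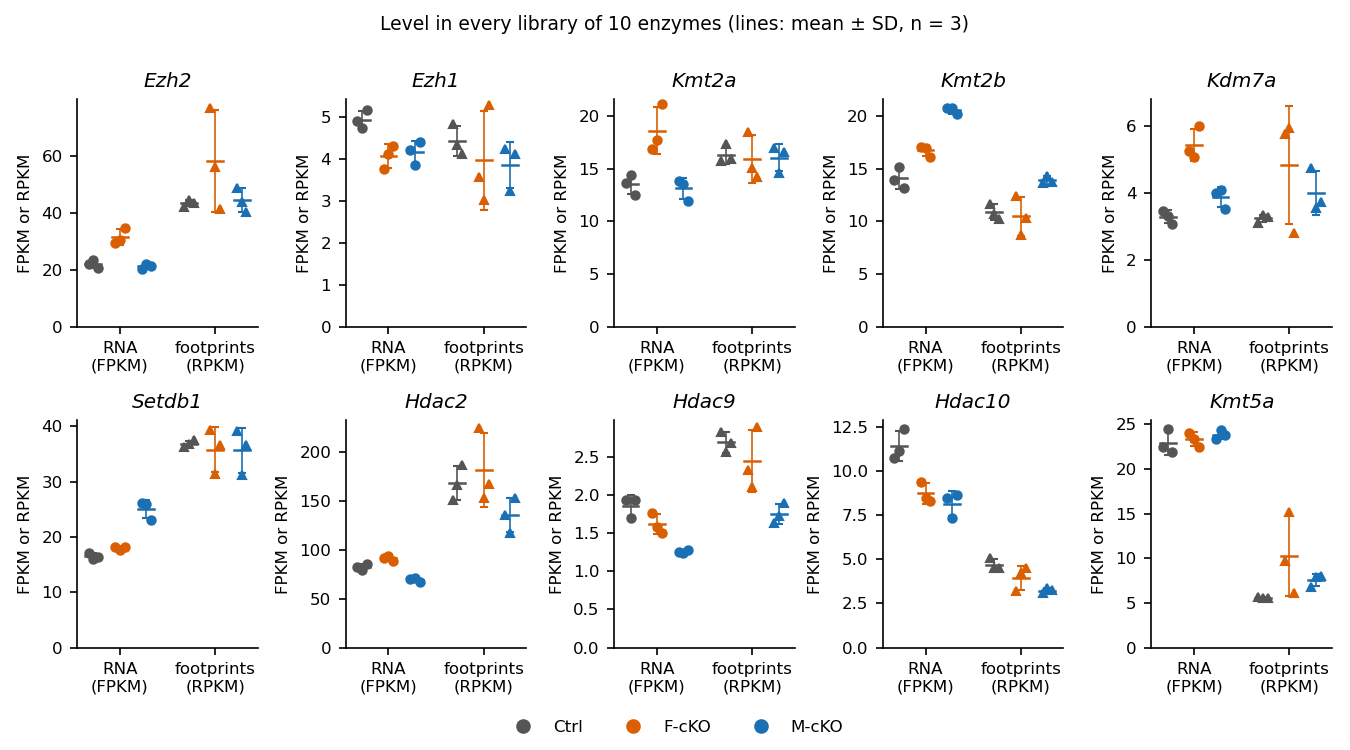
Points are the level in each library of 10 enzymes in RNA-seq (circles, FPKM) and Ribo-seq (triangles, RPKM), with the mean and SD of the 3 libraries of each group; Ctrl is grey, *F*-cKO orange and *M*-cKO blue, and every axis starts at 0. *Ezh2* and *Kmt2a* RNA was higher in *F*-cKO alone of the groups, *Setdb1* RNA in *M*-cKO, and *Hdac9* was lower in *M*-cKO in both assays.

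Partner subunits of the same complexes, taken from lists of complex members, were counted in the same fits, first in RNA. The shares of all genes given above, 11.5% higher and 9.57% lower in *F*-cKO and 15.5% and 14.1% in *M*-cKO, are the background of these counts. Of 9 PRC2 partners, 6 were higher in *F*-cKO (*Eed*, *Suz12*, *Rbbp4*, *Jarid2*, *Aebp2* and *Mtf2*, with log2 fold changes of 0.36, 0.29, 0.27, 0.34, 0.45 and 0.27) and the other 3 were not called. In *M*-cKO *Mtf2* was lower (-0.24) and the other 8 were not called, and 6 were lower in *M*-cKO than in *F*-cKO. Of 10 tested COMPASS partners 2 were higher and 1 lower in *F*-cKO, and 2 were higher in *M*-cKO, *Hcfc1* (0.36) and *Ncoa6* (0.39), so that 20.0% were higher in either knockout. Of 22 deacetylase complex partners, 9 were higher in *F*-cKO (40.9%), and 7 were higher and 1 lower in *M*-cKO (31.8% and 4.55%). Both counts include *Chd4*, the NuRD remodeller (0.53 and 0.31), and *Rcor2*, a CoREST subunit (0.51 and 0.53). Of 26 acetyltransferase complex partners, 7 were higher and 1 lower in *F*-cKO (26.9% and 3.85%), and 6 were higher and 3 lower in *M*-cKO (23.1% and 11.5%), where *Jade2*, a scaffold of KAT7 complexes, had a log2 fold change of 1.42. Of 28 histone modifiers outside the naming rule, 8 were higher and 3 lower in *F*-cKO (28.6% and 10.7%), and 7 were higher and 2 lower in *M*-cKO, including *Prdm16* (0.54 and 0.68). In footprints, no partner of 95 tested was called in *F*-cKO or between the knockouts by edgeR, and 5 had an unadjusted *P* below 0.05 between the knockouts. In *M*-cKO 7 of 95 had more footprints and 11 fewer (7.37% and 11.6%, beside 7.13% and 7.50% of all genes). The PRC2 subunits *Eed* (-0.47) and *Rbbp4* (-0.53) and the COMPASS subunits *Ash2l* (-0.42) and *Wdr82* (-0.43) were among the lower ones, and *Ncoa6* (0.36) and *Rcor2* (0.54) among the higher ones. The TE of *Wdr82* (-0.47) was lower and that of *Mbd2* (0.87), a NuRD subunit, was higher in *M*-cKO, out of 94 partners tested (1.06% each way, beside 1.18% lower and 1.89% higher among all genes).

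Several measured properties moved with these results. All 7 markers of cycling cells were higher in *F*-cKO and 6 of 7 in *M*-cKO, with summed RNA levels of 103.8 to 129.8 FPKM in Ctrl, 179.1 to 202.9 FPKM in *F*-cKO and 156.4 to 165.3 FPKM in *M*-cKO. Of 5 intermediate progenitor markers, 4 were called higher for *F*-cKO and 2 for *M*-cKO with no marker called lower, and their sums were 131.4 to 206.7, 235.4 to 293.8 and 228.2 to 244.7 FPKM in Ctrl, *F*-cKO and *M*-cKO libraries, respectively. All 8 ganglionic eminence and interneuron markers were higher in *M*-cKO, with sums of 86.9 to 88.2 FPKM in Ctrl and 123.4 to 167.3 FPKM in *M*-cKO. Of the same 8 markers 4 were higher in *F*-cKO, where the sums (83.7 to 115.2 FPKM) overlapped Ctrl. Radial glia markers were called both ways, 4 higher and 2 lower of 8 in *F*-cKO and 3 higher and 2 lower in *M*-cKO, with sums of 761.7 to 850.6 FPKM in Ctrl, 721.3 to 782.6 FPKM in *F*-cKO and 560.4 to 601.9 FPKM in *M*-cKO. For excitatory neurons, 3 of 9 markers were higher and 2 lower in *F*-cKO and 4 higher against 3 lower for *M*-cKO, and their sums ranged from 2248 to 2436 FPKM in Ctrl, 2044 to 2237 FPKM in *F*-cKO and 2273 to 2386 FPKM in *M*-cKO. In *F*-cKO, 1 of 6 endothelial markers was lower (sums of 37.7 to 43.3 FPKM against 49.4 to 54.3 FPKM in Ctrl), as were 3 of 6 markers of meninges (2.97 to 9.78 FPKM against 11.8 to 22.2 FPKM), and no marker of either list was called in *M*-cKO. No microglia marker was called against Ctrl, and of 8 erythroid markers 1 was higher and 1 lower in *F*-cKO and 1 higher in *M*-cKO. Between the knockouts, RNA of 7 of 8 ganglionic eminence and interneuron markers, 5 of 8 erythroid markers and 3 of 6 markers of meninges was higher in *M*-cKO than in *F*-cKO. Lower in *M*-cKO were 3 of 7 cycling markers, 3 of 8 cortex identity markers, 4 of 8 radial glia markers (1 was higher), 2 of 5 intermediate progenitor markers and 3 of 9 excitatory neuron markers (1 was higher). In footprints of *M*-cKO against Ctrl, 4 of 8 ganglionic eminence and interneuron markers were higher, with sums of 64.6 to 123.9 RPKM against 38.9 to 58.6 RPKM, as were 2 of 7 cycling markers, 2 of 8 cortex identity markers and 3 of 8 genes of protein folding at the endoplasmic reticulum. Sums of the cycling list (266.4 to 367.4 against 281.5 to 305.7 RPKM) and the cortex identity list (647.1 to 829.3 against 766.6 to 874.1 RPKM) overlapped Ctrl. Radial glia markers were called once each way there, with sums of 1044 to 1479 RPKM in *M*-cKO against 1909 to 2156 RPKM in Ctrl. No intermediate progenitor marker was called, with sums of 111.7 to 150.8 RPKM against 79.9 to 109.4 RPKM. Excitatory neuron markers were called 1 higher and 2 lower, and erythroid markers 1 higher. The part of these cell types in the changes of the enzymes was not tested. *Kdm5c*, *Kdm6a*, *Hdac6* and *Hdac8* are X-linked, the first pair being known to escape X inactivation, and *Xist* RNA varied between libraries, from 29.4 to 50.2 FPKM in Ctrl and 17.0 to 56.1 FPKM in *F*-cKO, and at 0.0049, 7.92 and 20.8 FPKM in *M*-cKO. *Kdm6a* was 5.17, 4.71 and 5.38 FPKM in Ctrl, 6.28, 6.16 and 6.999 FPKM in *F*-cKO and 4.36, 4.68 and 4.79 FPKM in *M*-cKO, and the part of the sex of the embryos in these values was not tested.

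The enzymes are long genes, and the share of genes called higher in *F*-cKO varied with length. Lengths implied by the ratio of counts to FPKM placed 38 of the 65 tested enzymes among the longest genes, the top of 4 equal classes of length (6506 bases or more). In that class 26 of 38 enzymes (68.4%) and 25.6% of all genes were higher in *F*-cKO, with medians of 0.32 and 0.10 on the log2 scale. In the other 3 classes 3 of 27 enzymes were higher, compared with 2.84%, 6.67% and 12.6% of all genes from the shortest up. In *M*-cKO, 16 of 38 enzymes (42.1%) and 18.7% of all genes of the longest class were higher, while in the other classes 2 of 27 enzymes were higher, beside 11.04%, 15.7% and 18.7% of all genes from the shortest up. Across the 65 enzymes Spearman's rho between length and log2 fold change was 0.49 for *F*-cKO, and 0.33 for *M*-cKO, as a description across genes from the same libraries, against 0.24 and 0.03 across all genes.

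**Figure D4:**
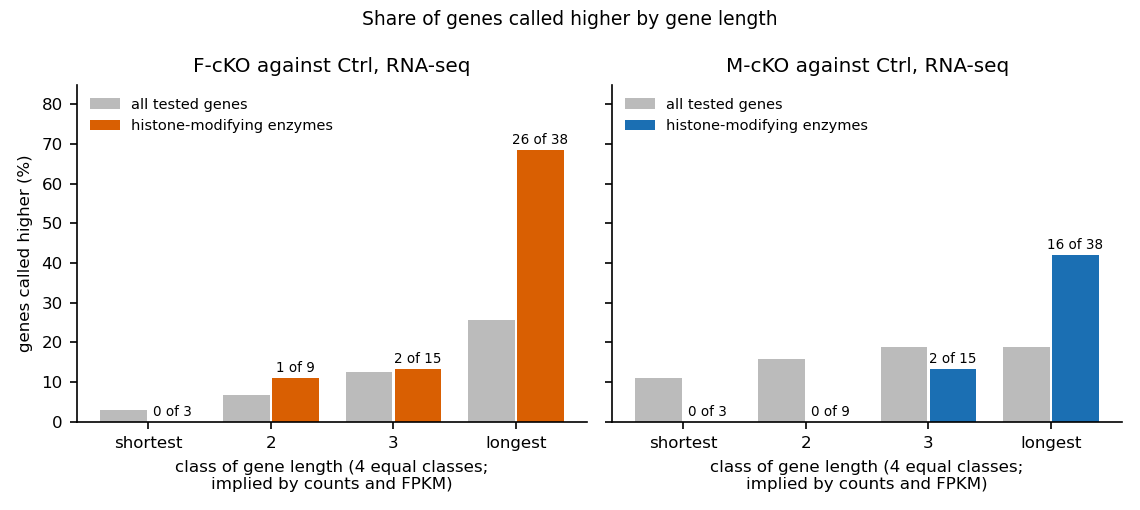
Bars give the percentage of genes called higher than Ctrl in RNA-seq within each of 4 equal classes of gene length, for all tested genes (grey) and for the enzymes (coloured, with the count above each bar). In the longest class 26 of 38 enzymes were higher in *F*-cKO and 16 of 38 in *M*-cKO.

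Ribosome footprints, which report the ribosomes engaged on each mRNA, gave fewer calls. In *F*-cKO against Ctrl, edgeR called none of the 64 enzymes and 0% of all 14335 genes; 2 enzymes had an unadjusted *P* below 0.05 (2.22% of all genes did), and DESeq2 called no enzyme either. The deleted gene *Fto* was not called in this fit, at a log2 fold change of -2.67 ± 0.25 and an adjusted *P* of 0.35 (unadjusted *P* = 2.4e-05). *Ezh2* footprints were 42.2, 44.4 and 43.6 RPKM in Ctrl and 77.0, 55.9 and 41.3 RPKM in *F*-cKO, which overlap. The 2 genes with the smallest *P* values on the higher side were *Kmt5a*, the H4K20 monomethyltransferase, and *Kmt2e*. *Kmt5a* was 5.61, 5.59 and 5.53 RPKM in Ctrl and 9.69, 15.1 and 6.05 RPKM in *F*-cKO, a log2 fold change of 0.96 ± 0.37 (adjusted *P* = 0.73) that was 0.46 ± 0.19 (adjusted *P* = 0.88) without *F*-cKO replicate 2. *Kmt2e* was 21.3, 23.3 and 23.8 RPKM in Ctrl and 37.7, 33.4 and 23.3 RPKM in *F*-cKO, a log2 fold change of 0.52 ± 0.21 (adjusted *P* = 0.73), and 0.39 ± 0.19 without that library. The *Kmt5a* groups did not overlap, with replicate 3 of *F*-cKO close to Ctrl, and the *Kmt2e* groups overlapped through the same replicate. On the lower side, *Kmt5b* (-0.14 ± 0.12) and *Kat5* (-0.14 ± 0.14) had the smallest *P* values, with adjusted *P* of 0.73 and 0.74, and stood at -0.06 and -0.04 without *F*-cKO replicate 2. *Ezh2* was at 0.46 with all libraries and 0.41 without it. Without *F*-cKO replicate 2 no enzyme was called and 1 (*Kmt5a*) had an unadjusted *P* below 0.05. The median log2 fold change over the enzymes was 0.08 with all libraries, beside 0.05 over all genes. Without *F*-cKO replicate 2 it was 0.06, beside -0.0013 over all genes. Without *F*-cKO replicate 1 it was 0.0095, beside 0.0011, and without *F*-cKO replicate 3 it was 0.18, beside 0.11.

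In *M*-cKO against Ctrl, footprints of 6 enzymes were higher and 3 lower, beside 7.13% and 7.50% of all 14314 genes tested, so the share of enzymes called (14.1%) was close to that of all genes (14.6%). The higher genes were *Kmt2e*, *Kdm6b*, *Kmt5a*, *Kmt2b*, *Setd1b* and *Dot1l*. *Kmt2e* was 21.3, 23.3 and 23.8 RPKM in Ctrl and 29.2, 33.6 and 32.2 RPKM in *M*-cKO, a log2 fold change of 0.49 ± 0.11 (adjusted *P* = 0.026). *Kdm6b*, an H3K27 demethylase, was 20.4, 19.8 and 19.6 RPKM in Ctrl and 28.2, 26.4 and 23.5 RPKM in *M*-cKO (0.40 ± 0.10, adjusted *P* = 0.036). *Kmt5a* was 6.81, 7.88 and 8.01 RPKM in *M*-cKO (0.45 ± 0.12, adjusted *P* = 0.041), and *Kmt2b* was 11.7, 10.7 and 10.2 RPKM in Ctrl and 13.6, 14.4 and 13.7 RPKM in *M*-cKO (0.37 ± 0.10, adjusted *P* = 0.042). In each of these genes the lowest *M*-cKO library was higher than the highest Ctrl library.

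The 3 genes with fewer footprints, *Hdac9*, *Hdac10* and *Kdm1b*, also had lower RNA in *M*-cKO. *Hdac9* was 2.84, 2.56 and 2.69 RPKM in Ctrl and 1.63, 1.73 and 1.90 RPKM in *M*-cKO, a log2 fold change of -0.61 ± 0.11 (adjusted *P* = 0.018). *Hdac10* was 5.08, 4.52 and 4.51 RPKM in Ctrl and 3.07, 3.36 and 3.26 RPKM in *M*-cKO (-0.53 ± 0.14, adjusted *P* = 0.042). *Kdm1b* was 14.7, 15.04 and 14.8 RPKM in Ctrl and 12.3, 10.1 and 12.5 RPKM in *M*-cKO (-0.35 ± 0.09, adjusted *P* = 0.043). These footprint calls rest on the full set of libraries: none of the 64 enzymes was called without Ctrl replicate 1, 2 or 3, 2 were called without *M*-cKO replicate 1 or 2, and 12 without *M*-cKO replicate 3, while no log2 fold change of the 9 genes changed sign. Beside these, *Hdac1* (0.33 ± 0.17), *Hdac2* (-0.30 ± 0.12), *Crebbp* (0.28 ± 0.10), *Kmt2d* (0.38 ± 0.11), *Setd2* (0.19 ± 0.08), *Ep300* (0.18 ± 0.09), *Ezh1* (-0.19 ± 0.12), *Ezh2* (0.04 ± 0.10) and *Kmt2a* (-0.01 ± 0.08) were not called by edgeR with all libraries. DESeq2 called *Crebbp* (adjusted *P* = 0.039) and *Kmt2d* (0.012), and edgeR called *Kmt2d* with protein-coding genes only (0.035) or without *M*-cKO replicate 3 (0.021) and *Hdac1* without *M*-cKO replicate 3 (0.038).

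RNA and footprints come from separate libraries, so that they can be set side by side within a comparison. Of the 29 enzymes with higher RNA in *F*-cKO, 22 had a footprint log2 fold change above 0, with a median of 0.10 against 0.38 for their RNA, beside 41 of all 64 enzymes and 19 of the 32 whose RNA was not called. Without Ribo-seq *F*-cKO replicate 2, 24 of the 29 were above 0 and their footprint median was 0.06. The counts over all 64 enzymes and over the 32 not called are given with all libraries only, so 24 of 29 has no count beside it. Of the 18 with higher RNA in *M*-cKO, 13 were above 0 in footprints and 3 were called higher (*Kmt2b*, *Setd1b* and *Dot1l*), beside 38 of all 64 and 23 of the 38 whose RNA was not called, and the medians were 0.13 and 0.34. Of the 8 with lower RNA in *M*-cKO, 6 were below 0 in footprints and 3 were called lower, with medians of -0.25 and -0.27. The genes called in both assays make up 3 of 18 RNA calls and 3 of 6 footprint calls on the higher side, and 3 of 8 and 3 of 3 on the lower side. Between the knockouts, edgeR and DESeq2 called no footprint difference among the enzymes. Over all 14262 genes edgeR called 0%, and DESeq2 called 172 higher and 28 lower in *M*-cKO. By edgeR, 4 of 64 enzymes had an unadjusted *P* below 0.05, beside 8.09% of all genes. *Kmt2b* (0.41 ± 0.14) and *Hdac11* (0.57 ± 0.22) were higher, and *Hdac9* (-0.49 ± 0.19) and *Hdac2* (-0.43 ± 0.17) were lower in *M*-cKO. Without *F*-cKO replicate 2 none was called and 8 had an unadjusted *P* below 0.05, among them these 4, at 0.35, 0.56, -0.52 and -0.47 in that order. The 8.09% belongs to the fit with all libraries, and no such share is given for the fit without this library.

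**Figure D5:**
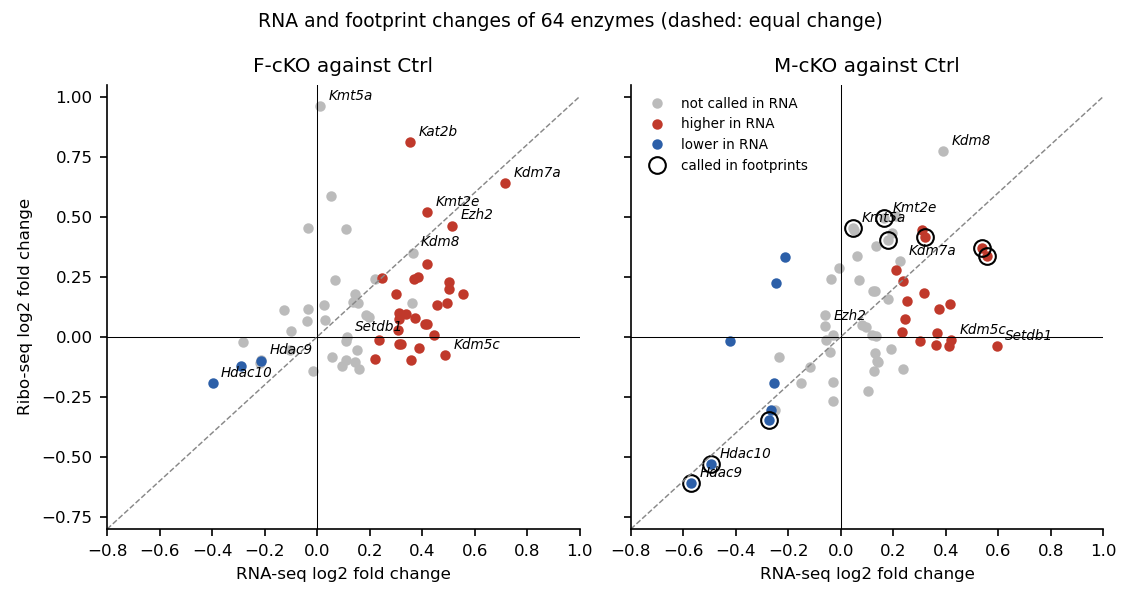
Each point is 1 of 64 enzymes, with its log2 fold change against Ctrl in RNA-seq on the horizontal axis and in Ribo-seq on the vertical axis; red and blue mark RNA called higher and lower, black rings mark footprints called, and the dashed line marks equal change. In *F*-cKO 22 of 29 red points lie above 0 and none is ringed, and in *M*-cKO *Hdac9* and *Hdac10* lie near the dashed line at the lower left while *Setdb1* lies at the far right near 0.

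Translation efficiency (TE) was the ratio of footprints to RNA. In Ctrl the median TE of the 64 enzymes was 1.32, as the ratio of mean RPKM to mean FPKM, compared with 0.79 over all 25038 genes above 0 in both assays and 0.757 over those with at least 1 FPKM. For *F*-cKO the median was 1.202 and for *M*-cKO 1.26, against 0.85 and 0.944 over all genes and 0.786 and 0.743 over those with at least 1 FPKM. Without Ribo-seq *F*-cKO replicate 2 the *F*-cKO medians were 1.227, 0.848 and 0.779. *Kdm5b*, an H3K4 demethylase, had the highest TE in Ctrl (4.88), followed by *Crebbp* (3.48) and *Setd2* (2.80), and the lowest were *Setd3* (0.227), *Kmt5a* (0.243), *Kmt5c* (0.297) and *Hdac5* (0.333). *Setd3* remained lowest in both knockouts.

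By the interaction of assay and genotype over 12 libraries, edgeR and DESeq2 called no TE change among the enzymes in *F*-cKO (0% of all 13225 genes by edgeR). At an unadjusted *P* below 0.05 there were 18 of 64, 16 of them lower, compared with 9.29% of all genes (6.18% lower), and the median log2 change in TE was -0.15 over the enzymes and -0.01 over all genes. The smallest *P* values on the lower side were those of *Kdm5c* (-0.60 ± 0.14, adjusted *P* = 0.38) and *Ash1l* (-0.40 ± 0.11, adjusted *P* = 0.43), and on the higher side those of *Setd3* (0.45 ± 0.18) and *Kmt5a* (0.91 ± 0.40). Without Ribo-seq *F*-cKO replicate 2 these 4 were at -0.49, -0.38, 0.32 and 0.45, and 15 of 64 enzymes had an unadjusted *P* below 0.05, 12 of them lower. The 9.29% and 6.18% belong to the fit with all libraries, and no such share is given for the fit without this library. In that fit the smallest *P* values on the lower side were those of *Setd7* (-0.61, from -0.31 with all libraries) and *Kat6a* (-0.43), with adjusted *P* of 0.14 and 0.17. The median over the enzymes was -0.14 without this library, -0.23 without Ribo-seq *F*-cKO replicate 1 and -0.0975 without Ribo-seq *F*-cKO replicate 3. Over all genes it was -0.01, -0.07 and -0.05 in these fits. With libraries scaled within each assay or with protein-coding genes only, the median over the enzymes was -0.10. Over all genes it was 0.041 and 0.037 in that order.

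In *M*-cKO, 2 enzymes had a higher TE and 1 a lower TE, beside 1.89% and 1.18% of all 13208 genes tested. *Setdb1* TE was lower, with a log2 change of -0.56 ± 0.11 (adjusted *P* = 0.018): its RNA rose as given above, while its footprints were 36.3, 36.7 and 37.5 RPKM in Ctrl and 39.2, 31.2 and 36.5 RPKM in *M*-cKO, which overlap. *Hdac5* TE was higher by 0.54 ± 0.12 (adjusted *P* = 0.035), with RNA at 23.2, 24.5 and 23.1 FPKM in Ctrl and 19.1, 18.7 and 22.2 FPKM in *M*-cKO, and footprints at 8.22, 7.98 and 7.41 RPKM in Ctrl and 8.97, 9.48 and 8.88 RPKM in *M*-cKO. *Kmt5a* TE was higher by 0.47 ± 0.12 (adjusted *P* = 0.049), at an RNA level of 22.5, 24.5 and 21.9 FPKM in Ctrl and 23.4, 24.4 and 23.8 FPKM in *M*-cKO. This call was lost with RLE scaling (0.055), with libraries scaled within each assay (0.056), with no filter on low counts (0.065) and in 11 of 12 fits that left out 1 library. *Kat6a* was not called by edgeR (-0.38 ± 0.10, adjusted *P* = 0.051) but was called lower by DESeq2 (5.9e-04), with RLE scaling (0.041), with libraries scaled within each assay (0.041) and without Ribo-seq *M*-cKO replicate 3 (0.032). Leaving out 1 of the 12 libraries gave between 0 and 4 called enzymes: none without RNA-seq Ctrl replicate 2 or 3 or RNA-seq *M*-cKO replicate 1, and only *Setdb1* without RNA-seq Ctrl replicate 1, RNA-seq *M*-cKO replicate 2, Ribo-seq Ctrl replicate 2 or Ribo-seq *M*-cKO replicate 2. With the RNA-seq and Ribo-seq libraries of the same number paired as a block within each group, *Setdb1* was the 1 enzyme called (adjusted *P* = 0.03), with *Hdac5* at 0.054 and *Kmt5a* at 0.065. The log2 change of *Setdb1* stayed between -0.62 and -0.51 under every alternative.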

How the data were processed

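Cortical RNA was sequenced as 150 bp paired-end reads and aligned by the authors with HISAT2 2.0.5, and they deposited read counts and FPKM per gene. The tool that counted RNA-seq reads and its use of strand are not given in the sources used here, so overlapping gene models, and *Kdm6bos* and *Kdm6b*, cannot be told apart with certainty. For Ribo-seq, cycloheximide-treated lysates were digested with RNase I, protected fragments were depleted of rRNA and mapped with TopHat2, and the authors deposited HTSeq counts and RPKM. Of the 54838 genes in these counts, 40490 are blank in 8 of 9 libraries and 14348 were used. The submitters' processing notes list build mm10. HTSeq, TopHat2 and annotation versions are not given in the sources used here.

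Counts as deposited were fitted with edgeR 4.0.16 (R 4.3.3), using the quasi-likelihood test, TMM scaling and filterByExpr (minimum count 10, minimum total 15), on the 6 libraries of each comparison. *P* values were adjusted by Benjamini-Hochberg over all genes tested, and genes below 0.05 were called. TE was tested as the interaction of assay and genotype over 12 libraries. FPKM and RPKM were used for levels only. Scripts were tested on simulated counts with known changes. Of 100 simulated 2-fold changes in RNA-seq, 76 were called for *F*-cKO, 74 for *M*-cKO and 81 between the knockouts. In Ribo-seq these were 1, 46 and 1 in the same order, and for TE they were 17 for *F*-cKO and 63 for *M*-cKO. Alternatives were DESeq2 1.42.0, RLE scaling, no filter, protein-coding genes only, all libraries in one fit, a replicate block, and leaving out each library, and, added after seeing the data, scaling within each assay and a block of same-numbered RNA-seq and Ribo-seq libraries. For each RNA-seq comparison with Ctrl, the enzymes given in full were the 6 called with the smallest *P* in each direction (3 between knockouts, 4 for *M*-cKO footprints, and 2 elsewhere, called or not), and 9 fixed genes. *Kdm6a* was shown besides these after its values were seen, as were *Xist* and *Eif2s3y*. The enzymes, gene lists and rules were chosen with earlier results of these data known.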

Additional observations from a re-analysis of the deposited data

Results flagged for a closer look

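For 6 enzymes the direct test between the knockouts found that the RNA change in *M*-cKO differed from that in *F*-cKO, by edgeR's quasi-likelihood test with Benjamini-Hochberg adjustment. These are the 3 with the smallest *P* in each direction. The log2 difference, *M*-cKO minus *F*-cKO, was 0.47 for *Setdb1*, 0.29 for *Kmt2b* and 0.40 for *Hdac11*, each higher in 3 of 3 *M*-cKO libraries than in any *F*-cKO library. It was -0.51 for *Kat6b*, -0.59 for *Ezh2* and -0.41 for *Hdac2*, each lower in 3 of 3. Against Ctrl, *Ezh2* was called in *F*-cKO and not in *M*-cKO, *Setdb1* and *Hdac2* in *M*-cKO and not in *F*-cKO, *Kmt2b* in both, *Kat6b* in *F*-cKO and not in *M*-cKO, and *Hdac11* in neither.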

How the results depend on the processing

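In RNA-seq, the enzymes called were 32 in *F*-cKO (24 to 35 under the alternatives that kept all libraries, and 21 to 30 with 1 library left out), 26 in *M*-cKO (25 to 27, and 18 to 29) and 24 between the knockouts (19 to 26, and 13 to 21), and 19, 16 and 13 of them were called without any one library. The 9 enzymes with footprint calls in *M*-cKO became 0 with all libraries in one fit, 2 with the replicate block and 0 to 12 with 1 library left out, 0 without Ctrl replicate 1, 2 or 3. TE calls in *M*-cKO, 3 in all, were 6 with DESeq2 (3 higher and 3 lower), 0 with all libraries in one fit, 1 with the replicate block, 1 with same-numbered RNA-seq and Ribo-seq libraries paired as a block within each group and 0 to 4 with 1 library left out. The numbers of all genes called moved as well. In *F*-cKO RNA they went from 1955 higher and 1621 lower to 984 and 559 without Ctrl replicate 3. In *M*-cKO footprints they went from 1020 and 1073 to 115 and 62 without Ctrl replicate 2, and to 1303 and 1244 without *M*-cKO replicate 3. The cause was not tested. No enzyme was called in *F*-cKO footprints, *F*-cKO TE or footprints between the knockouts under any alternative run. Replicate numbers were not shown to pair the samples, since correlations of same-numbered libraries ranged from -0.23 to 0.21 in RNA-seq and from -0.32 to 0.16 in Ribo-seq. Between the RNA-seq and Ribo-seq libraries of a group, same-numbered pairs correlated at 0.16 to 0.31 in Ctrl and 0.094 to 0.34 in *M*-cKO, each library best with its own number, but at -0.34 to -0.03 in *F*-cKO. This is a hint of pairing from the data and not from the labels, and the paired fit of TE was added after seeing them. With the replicate as a block, 24 enzymes were called in *F*-cKO RNA, 25 in *M*-cKO RNA and 19 between the knockouts. Among the *F*-cKO calls lost in that edgeR fit were *Hdac1* (adjusted *P* = 0.0502), *Kmt2d* (0.057), *Ezh1* (0.060) and *Hdac7* (0.082). Among single enzymes, 773 values kept direction and call, 121 lost the call, 11 gained one and 5 changed sign. All 5 were *Kmt2a* in *M*-cKO, which was never called: RNA at 0.015 without *M*-cKO replicate 3 (from -0.099 to 0.015 with 1 library left out), and footprints (from -0.040 to 0.046) at 0.0089 with all libraries in one fit, 0.016 with protein-coding genes only, 0.029 without Ctrl replicate 2 and 0.046 without *M*-cKO replicate 2. Ribo-seq libraries differed 3.27-fold in depth, and with 3 libraries a group the absence of a footprint call does not show that levels were equal.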
